A study of Mus musculus with 12 samples.

Results

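Of the 43346 genes in a table of mouse kidney RNA sequencing, 22032 are listed as protein-coding, and 35 of these encode the vacuolar proton pump or the acid-base proteins of intercalated cells. They were chosen by name: all 22 protein-coding genes whose symbol begins with Atp6v0 or Atp6v1, and 13 further genes, Slc4a1, Slc4a9, Slc26a4, Slc26a7, Foxi1, Car2, Car12, Car15, Rhbg, Rhcg, Aqp6, Insrr and Atp6ap1. The kidneys came from 6 samples labelled HP-AKI, taken at day 1 (samples 7, 8, 9, 11, 12 and 13), and 6 samples labelled Sham (samples 1 to 6), which the series' design text places at the same day. AKI is acute kidney injury, and in this field HP-AKI is short for heme protein-induced AKI, which the labels do not spell out. Strain, sex, age and the agent given are not stated in the labels, and no label ties the samples of a group to different animals. The p-values therefore reflect spread among libraries, which may be technical.

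The vacuolar proton pump (V-ATPase) is built from a cytosolic V1 sector, which splits ATP, and a membrane-embedded V0 sector, through which protons pass. Every cell uses it to acidify lysosomes and endosomes, with subunits that are made everywhere. Intercalated cells of the collecting duct also place it in the plasma membrane, where type A cells secrete acid into urine with the bicarbonate exchanger AE1 (Slc4a1) on the opposite side, and type B cells secrete bicarbonate with pendrin (Slc26a4). Several subunits have tissue-restricted forms, and in humans loss of the B1 form (ATP6V1B1) or the a4 form (ATP6V0A4) causes distal renal tubular acidosis. The forkhead factor Foxi1 is required in mice for intercalated cells to express their pump and exchangers.

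The libraries held 31624522 to 40630917 counts assigned to genes in HP-AKI and 35201197 to 41951129 in Sham. Levels are given as CPM, counts relative to the library's total, with TMM factors that correct for differences in library composition. Levels of different genes are compared as CPM per kilobase of the listed gene length. Ratios of counts within a library and summed levels of a list are not corrected for length, and a sum can rest mostly on 1 gene. Of the 35 members, 34 passed the filter on low counts. Atp6v1e2, the E2 subunit known from testis, had 3 counts over the HP-AKI group and 1 count over the Sham group and was not tested. The libraries Sham 1, Sham 2 and HP-AKI 8 stood apart from the rest of their groups in many members, and each result was also computed without all 3 of them. Their deviation went with base composition: over the 34 tested members, the log2 ratio of Sham 1 and Sham 2 to the other Sham libraries had a Pearson correlation of -0.74 (Spearman -0.80 across genes, which are not independent) with the GC percentage of the longest transcript. The same measure for HP-AKI 8 against the other HP-AKI libraries had a correlation of -0.56 (Spearman -0.59), and its part in the results below was not tested.

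The pump and intercalated cell genes were mostly lower in HP-AKI. Of 34 tested members 21 fell and 3 rose at an adjusted p under 0.05 (edgeR quasi-likelihood test, Benjamini-Hochberg over all genes), and 10 did not pass. Across all 17470 tested genes, 35.2% fell and 37.7% rose, against 61.8% and 8.82% of the members. The median log2 fold change was -0.46 over the members and 0.04 over all tested genes. In 20 members every HP-AKI library lay below every Sham library, a pattern shown by 25.8% of all tested genes, and in 3 members every HP-AKI library lay above, as in 26.7% of all tested genes. Falls of at least 2-fold were found in 12 members (17.1% of all tested genes) and rises of that size in 2 (16.1%). In whole kidney, fewer cells of a type and less RNA per cell cannot be told apart.

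**Figure D1:**
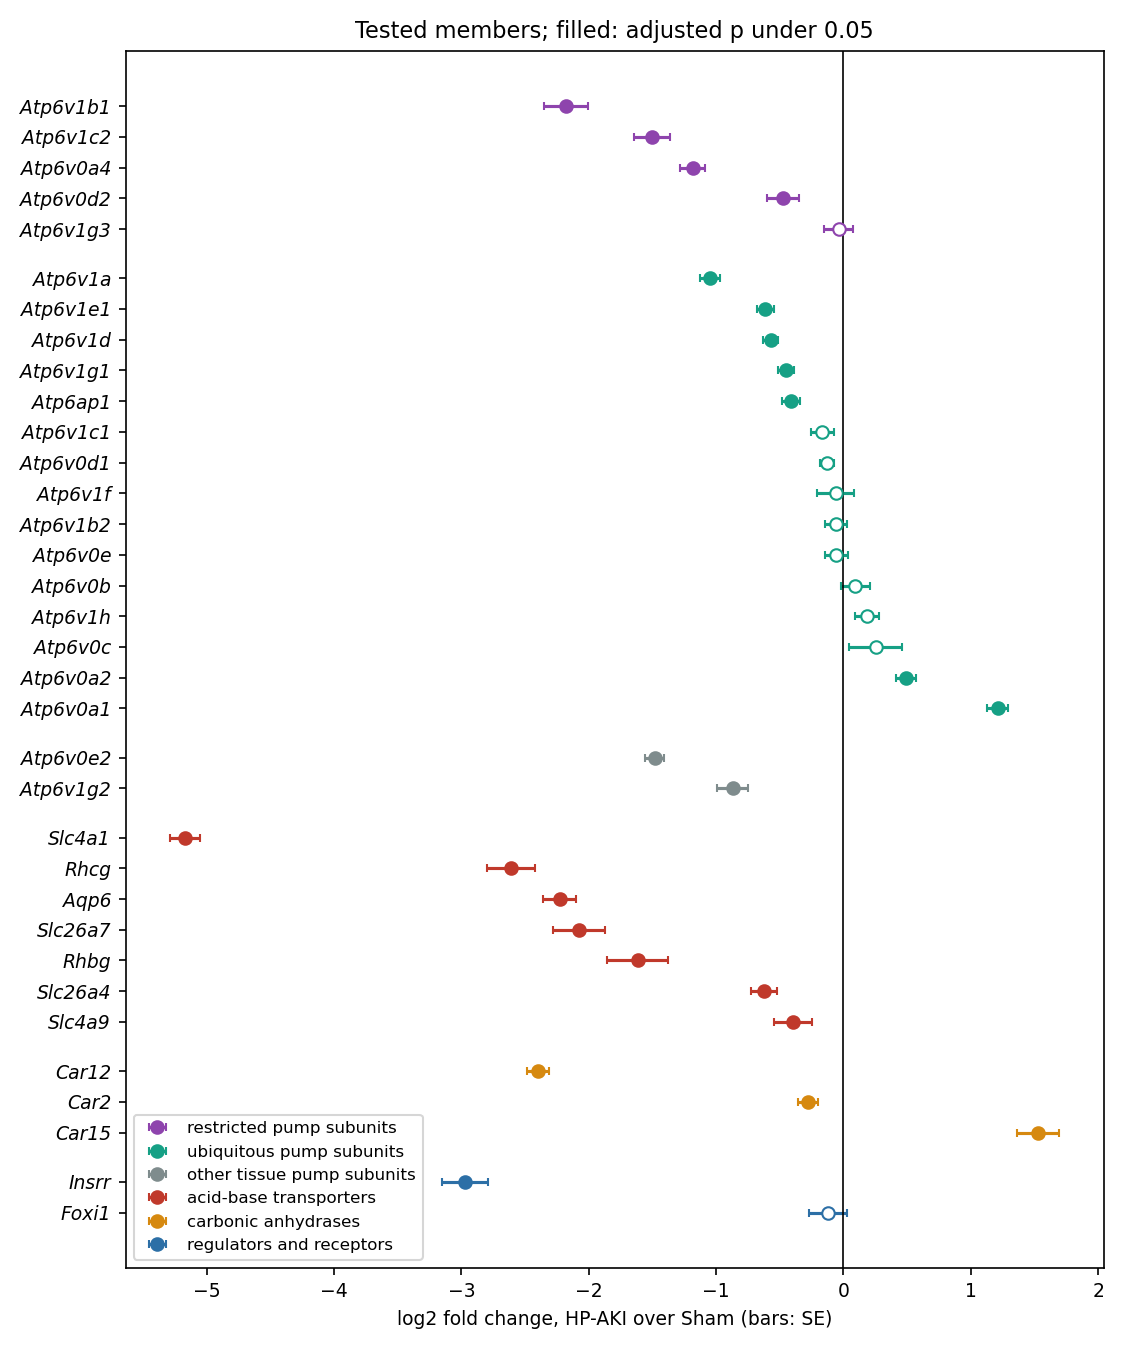
Log2 fold change of HP-AKI over Sham for the 34 tested members, by role, with bars showing the SE and filled symbols marking an adjusted p under 0.05. The acid-base transporters reach from -0.40 to -5.17, the restricted pump subunits from -0.04 to -2.18, and the ubiquitous subunits lie on both sides of 0.

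The tissue-restricted pump subunits were lower in HP-AKI, with 1 exception. Of 5 such subunits 4 fell, with a median log2 fold change of -1.18 over the 5, and in all 4 the groups did not overlap. Of all tested genes 35.2% fell, and 25.8% had every HP-AKI library below every Sham library. Atp6v1b1, the B1 subunit of the V1 sector found in intercalated cells (chromosome 6, 83743017 to 83758809, GRCm38), had 15.1, 27.7 and 32.4 CPM as lowest, median and highest of the 6 HP-AKI libraries, against 92.3, 117 and 131 CPM in Sham. Its log2 fold change was -2.18 ± 0.17 (SE, adjusted p 2.22e-08), which left 22.1% of the Sham level. HP-AKI 8 and HP-AKI 9, at 15.1 and 18.5 CPM, were the lowest of the injured kidneys.

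Atp6v1c2, an alternative C subunit that joins the V1 sector to the stalk of V0, had 5.79, 10.7 and 11.3 CPM in HP-AKI, against 25.1, 26.6 and 31.4 CPM in Sham. It fell by 1.505 ± 0.14 on the log2 scale (adjusted p 1.60e-07). Atp6v0a4, the a4 form of the large V0 subunit that forms the proton path together with the c ring (chromosome 6, 38048483 to 38124586), had 167, 176 and 222 CPM in HP-AKI, against 348, 401 and 504 CPM in Sham. The highest HP-AKI library was below the lowest Sham library, and the log2 fold change was -1.18 ± 0.10 (adjusted p 3.68e-08). Per kilobase it had the highest mean of the 5 restricted subunits in Sham, while in HP-AKI the mean of Atp6v1g3 was higher, with 36.9 ± 4.15 for Atp6v0a4 and 42.4 ± 6.20 for Atp6v1g3 in HP-AKI, against 83.9 ± 10.8 and 43.5 ± 6.79 in Sham (CPM per kilobase, SD, n = 6 each). The order of these 2 genes in HP-AKI was not tested.

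Atp6v0d2, a d subunit of kidney, bone-resorbing osteoclasts and some macrophages, had 29.8, 43.7 and 49.0 CPM in HP-AKI, against 50.03, 54.8 and 72.8 CPM in Sham. It fell by 0.48 ± 0.13 (adjusted p 0.00306), and the highest HP-AKI value was only just below the lowest Sham value. Atp6v1g3, a G subunit largely restricted to kidney, was the exception, with 66.5, 76.8 and 100.2 CPM in HP-AKI and 70.97, 77.3 and 99.6 CPM in Sham. Its ranges overlapped almost fully and its log2 fold change was -0.04 ± 0.11 (adjusted p 0.776).

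Of the 15 ubiquitous subunits, all tested, 5 fell, 2 rose and 8 did not pass, with a median log2 fold change of -0.06. The share that fell, 33.3%, was near the 35.2% of all tested genes, and the share that rose, 13.3%, was below the 37.7% of all tested genes. The falls were those of V1 subunits and of the accessory protein Atp6ap1. Atp6v1a, the catalytic A subunit that splits ATP, had 399.7, 444 and 493 CPM in HP-AKI, against 834, 891 and 1051 CPM in Sham. This subunit has no tissue-restricted paralog among the members, and it fell by 1.05 ± 0.08 (adjusted p 1.24e-08), with no overlap between the groups.

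Atp6v1e1 and Atp6v1d, parts of the peripheral and central stalks that couple ATP splitting to rotation, fell by 0.61 ± 0.07 and 0.57 ± 0.06. Atp6v1g1, the ubiquitous G subunit of the peripheral stalk, averaged 82.1 ± 3.39 (SD, n = 6) CPM in HP-AKI and 112 ± 7.69 CPM in Sham, and fell by 0.45 ± 0.06. Atp6ap1, an accessory protein of the V0 sector, fell by 0.41 ± 0.07, and its 6 HP-AKI libraries, at 190 to 212 CPM, were all below the Sham range of 246 to 301 CPM. The adjusted p of these 4 genes lay between 4.34e-07 and 1.10e-04.

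Both rises were of a subunits of V0. Atp6v0a1, the a1 form known from neurons and many other cells, had 107, 120 and 152 CPM in HP-AKI, against 50.4, 52.9 and 55.1 CPM in Sham. It rose by 1.21 ± 0.08 on the log2 scale (adjusted p 4.59e-09), and the lowest HP-AKI library was far above the highest Sham library. Atp6v0a2, the a2 form of Golgi and endosomes, had 68.3, 76.7 and 89.2 CPM in HP-AKI, against 49.7, 55.3 and 58.6 CPM in Sham, and rose by 0.49 ± 0.08 (adjusted p 3.42e-05). In both genes every HP-AKI library exceeded every Sham library.

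Among the 8 ubiquitous subunits that did not pass, log2 fold changes ran from -0.17 for Atp6v1c1, the ubiquitous C subunit, to 0.25 for Atp6v0c, which forms the proton-carrying ring. Atp6v1b2, the ubiquitous B subunit, averaged 441 ± 49.3 CPM in HP-AKI and 459 ± 35.2 CPM in Sham (SD, n = 6 each), a log2 fold change of -0.06 ± 0.08 (adjusted p 0.541). The ring and its neighbours were likewise not called, with -0.06 for Atp6v0e and 0.09 for Atp6v0b, as was the stalk subunit Atp6v1f at -0.06. Atp6v0d1, the ubiquitous d subunit, had -0.13 ± 0.06 and an adjusted p of 0.0558. All its HP-AKI libraries were below all Sham libraries, and it passed in 11 of 20 alternatives. Atp6v1h, a regulatory V1 subunit, had 0.19 ± 0.09 and passed with library size only (0.31), without Sham 2 (0.24), without HP-AKI 13 (0.21) and without the 3 libraries that stood apart (0.24).

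By sector, 7 of 12 tested V1 subunits fell and 0 rose at the adjusted threshold in edgeR's test (0 also at an unadjusted p under 0.05 and with DESeq2 and limma-voom), while 3 of 9 V0 subunits fell and 2 rose. These are falls of 58.3% (V1) and 33.3% (V0), beside 35.2% of all tested genes, and rises of 22.2% of the V0 subunits, beside 37.7% of all tested genes. The difference between the sectors was not tested. Of the 3 paralogs known mainly from other tissues, both that were tested fell. Atp6v0e2, an e subunit known from brain, had 14.99, 17.1 and 17.8 CPM in HP-AKI, against 43.2, 46.8 and 49.9 CPM in Sham, and fell by 1.48 ± 0.08 (adjusted p 1.84e-10). Atp6v1g2, the G subunit of neurons, averaged 2.67 ± 0.387 CPM in HP-AKI and 4.88 ± 0.453 CPM in Sham and fell by 0.87 ± 0.12.

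**Figure D2:**
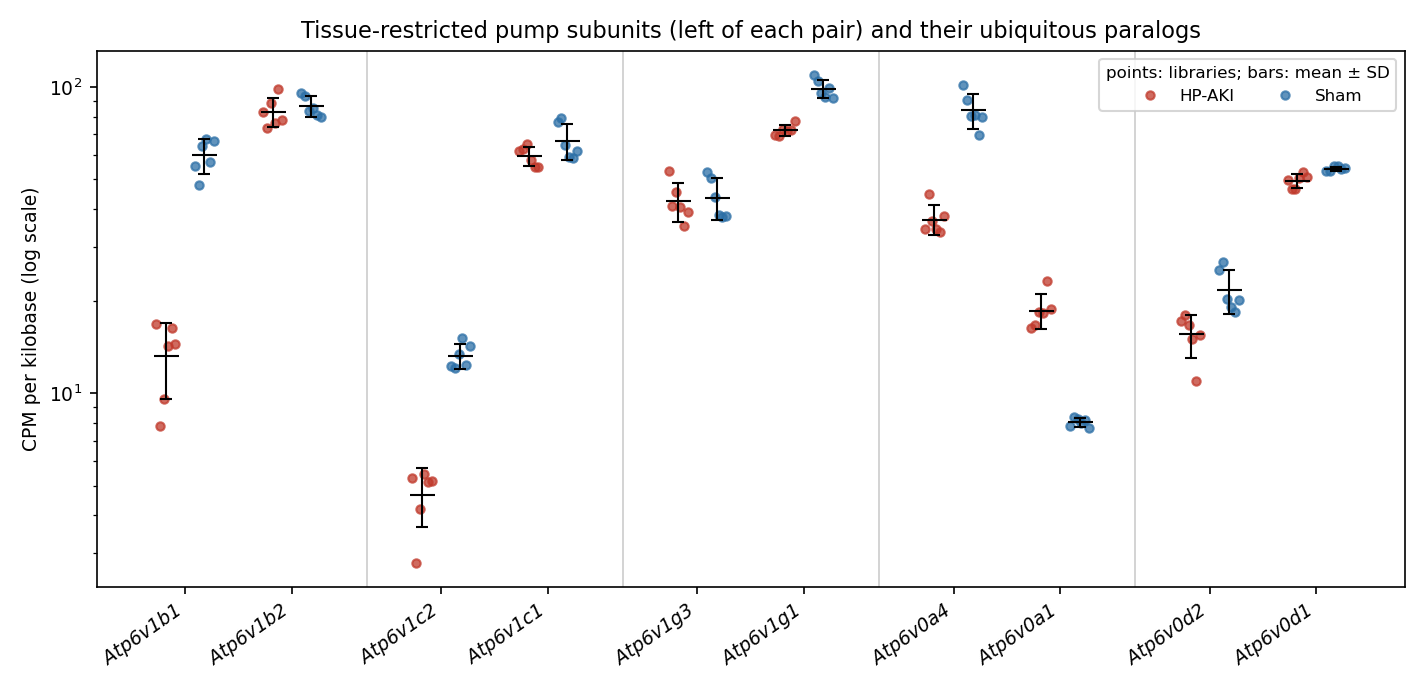
CPM per kilobase (log axis) of the 5 restricted subunits, each left of its ubiquitous paralog, with points for the 6 HP-AKI and 6 Sham libraries and bars for the mean and SD. Atp6v1b1 and Atp6v0a4 sit lower in HP-AKI while Atp6v1b2 overlaps between groups and Atp6v0a1 sits higher.

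The restricted and ubiquitous forms were then compared within each library, where a ratio does not depend on how libraries are scaled. The log2 ratio of restricted to ubiquitous counts was tested for 5 pairs with an exact two-sided permutation test over all assignments of the libraries to the groups, whose smallest possible p is 0.00216, and Benjamini-Hochberg adjustment over the 5 pairs. Atp6v0a4 over Atp6v0a1 had a mean log2 ratio of 0.59 ± 0.29 (SD, n = 6) in HP-AKI and 2.97 ± 0.20 in Sham, a difference of -2.38 (exact p 0.00216, adjusted 0.00361). Here a fall of Atp6v0a4 came with a rise of Atp6v0a1. Neither gene overlapped between the groups, so the separation of this ratio and its smallest p followed from the results above. Atp6v1b1 over Atp6v1b2 had -4.16 ± 0.41 in HP-AKI and -2.0 ± 0.28 in Sham, a difference of -2.16 with the same p-values by the exact test. Atp6v1c2 over Atp6v1c1 differed by -1.37, again with the smallest exact p. In each of these 3 pairs all 6 HP-AKI ratios were below all Sham ratios. For the B and C pairs too, this separation and the smallest p followed from the CPM ranges of the single genes.

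The G pair went the other way. Atp6v1g3 over Atp6v1g1 had a log2 ratio of -0.05 ± 0.24 in HP-AKI and -0.46 ± 0.14 in Sham, a difference of 0.41 (exact p 0.00433, adjusted 0.00541), with Atp6v1g1 lower and Atp6v1g3 not called. Atp6v0d2 over Atp6v0d1 had -1.08 ± 0.32 in HP-AKI and -0.74 ± 0.24 in Sham, and the difference of -0.35 did not pass (exact p 0.0519, adjusted 0.0519). It passed without HP-AKI 8 (-0.41), HP-AKI 9 (-0.39) or Sham 5 (-0.39), while it was -0.23 without HP-AKI 12 and -0.19 as a difference of group medians.

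Expressed per kilobase, B1 made up 13.6% ± 3.16 (SD, n = 6) of the B1 and B2 transcripts in HP-AKI and 40.8% ± 4.67 in Sham. The summed level of the B position was 96.3 ± 11.3 CPM per kilobase in HP-AKI and 146 ± 5.63 in Sham. At the a position, with Tcirg1 (the a3 form of osteoclasts and lysosomes) counted in, Atp6v0a4 made up 43.4% ± 4.86 in HP-AKI and 73.7% ± 3.52 in Sham. Atp6v0a2 held 30.1% ± 2.45 in HP-AKI and 16.2% ± 2.07 in Sham, and Atp6v0a1 held 21.8% ± 2.098 in HP-AKI and 7.13% ± 0.647 in Sham. The sum of the 4 a forms was 85.1 ± 3.79 CPM per kilobase in HP-AKI and 113 ± 9.18 in Sham. At the e position Atp6v0e2 made up 25.5% ± 1.55 in HP-AKI and 47.9% ± 2.19 in Sham. These shares are of whole kidney RNA and do not show which subunits meet in 1 cell.

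**Figure D3:**
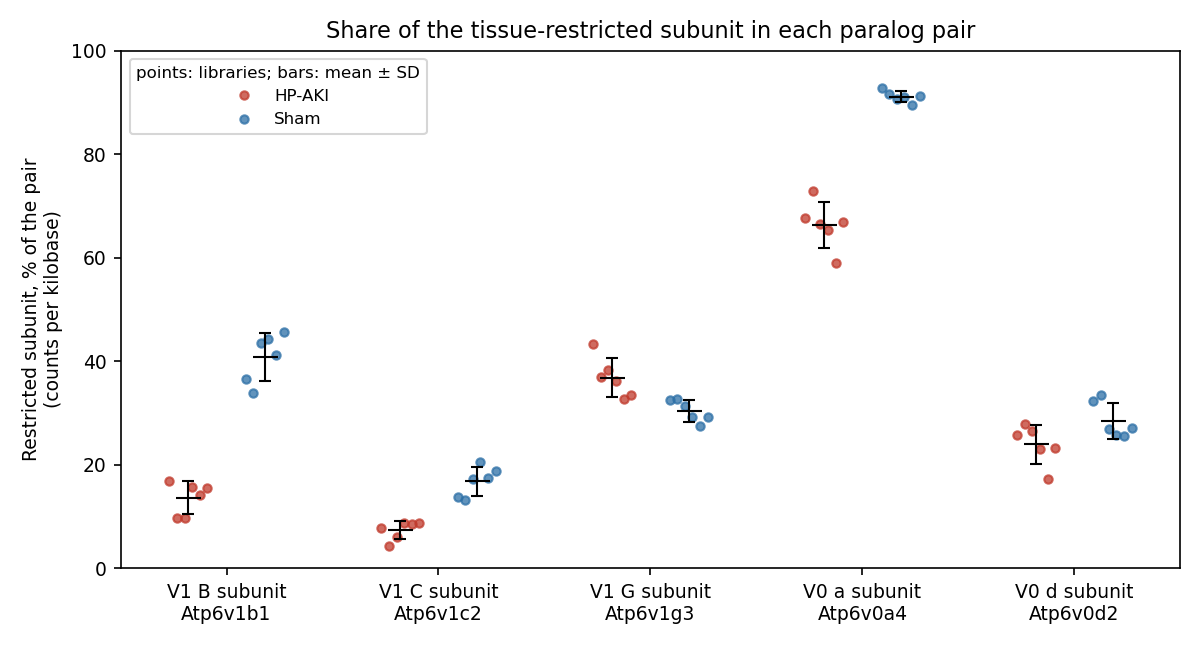
Share of the restricted subunit in each of the 5 paralog pairs, in percent of the pair's counts per kilobase, for 6 HP-AKI and 6 Sham libraries, with mean and SD. The Atp6v0a4 share of its pair with Atp6v0a1 is 66.4% in HP-AKI and 91.2% in Sham, and the Atp6v1g3 share is higher in HP-AKI.

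Promoter windows from RefSeq (GRCm38.p6, 250 bases before to 50 after the start) were matched for 23 of the 35 members and searched on both strands for a forkhead motif of the kind FOXI1 binds (GTAAACA) and for the core of the CLEAR element bound by TFEB and TFE3, factors of lysosomal genes (TCACGTG). The forkhead letters stood in 3.65% of all 32851 windows and the CLEAR letters in 3.765%. Among members the forkhead letters were found for 1 gene, Atp6v1b1, of 4 restricted subunits with a window. The CLEAR letters were found for 4 of 10 ubiquitous subunits (Atp6v1a, Atp6v0b, Atp6v0d1 and Atp6v0e) and for Aqp6. A match is a description of the letters only. The windows of the restricted subunit with the largest fall, of the catalytic subunit that fell and of a ring subunit that was not called are shown 5′ to 3′ on the gene's strand, with the matched letters in capitals. They cover bases 130 to 61 before the start of Atp6v1b1 (chr6:83742887-83742956, plus strand), 160 to 101 before the RefSeq start of Atp6v1a (chr16:44139360-44139419, minus strand) and 60 to 6 before that of Atp6v0b (chr4:117887335-117887389, minus strand).
Atp6v1b1: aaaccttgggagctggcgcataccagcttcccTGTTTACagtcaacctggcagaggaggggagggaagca
Atp6v1a: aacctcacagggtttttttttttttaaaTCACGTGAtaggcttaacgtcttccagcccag
Atp6v0b: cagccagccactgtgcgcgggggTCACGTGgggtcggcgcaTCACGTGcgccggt
The Atp6v1b1 match is the reverse complement of GTAAACA. The Atp6v1a match is read on both strands, which overlap in the shared CACGTG, and Atp6v0b holds the CLEAR letters at 2 places. The gene with the single forkhead match kept 22.1% of its Sham level, while the genes with CLEAR letters held Sham levels of 48.4% (Atp6v1a), 106.7% (Atp6v0b), 91.4% (Atp6v0d1), 96.1% (Atp6v0e) and 21.3% (Aqp6).

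All 7 acid-base transporters and channels fell, with a median log2 fold change of -2.07, and 5 of them fell at least 2-fold. Of all tested genes 35.2% fell and 17.1% fell at least 2-fold. Slc4a1 (chromosome 11, 102348824 to 102366203, GRCm38), which moves bicarbonate out of type A intercalated cells in exchange for chloride and is also the band 3 protein of red cells, had 0.905, 1.13 and 1.25 CPM in HP-AKI, against 35.4, 39.96 and 46.9 CPM in Sham. All HP-AKI libraries were far below the lowest Sham library, and the log2 fold change was -5.17 ± 0.12 (adjusted p 6.40e-14), or 2.77% of the Sham level. It was the largest change of any member.

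Because Slc4a1 is also made by red cell precursors, red cell genes were read beside it. The 4 adult hemoglobin genes summed to 129 to 333 CPM in HP-AKI and 95.4 to 954 CPM in Sham, with overlapping groups, and none of the 4 passed (edgeR, adjusted p 0.242 to 0.397, 0 at an unadjusted p under 0.05). Hbb-bs, a beta globin, had a log2 fold change of -0.51 ± 0.47, and Alas2, the heme synthesis enzyme of red cell precursors, had -0.38 ± 0.45. Sham 5 alone accounted for the top of the Sham range, and its Slc4a1 level of 43.5 CPM lay among those of Sham libraries with 95.4 to 250 CPM of hemoglobin. Over the list of 12 red cell genes, 9 were tested, of which 11.1% fell and 33.3% rose, beside 35.2% and 37.7% of all tested genes. The 1 fall was Tspan33, and the 3 rises were Ank1, Add2 and Epb42, at levels of 3.16 CPM or less. The part of the red cell genes in the Slc4a1 result was not tested. The gene-level counts do not separate the kidney and red cell transcripts of Slc4a1.

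**Figure D4:**
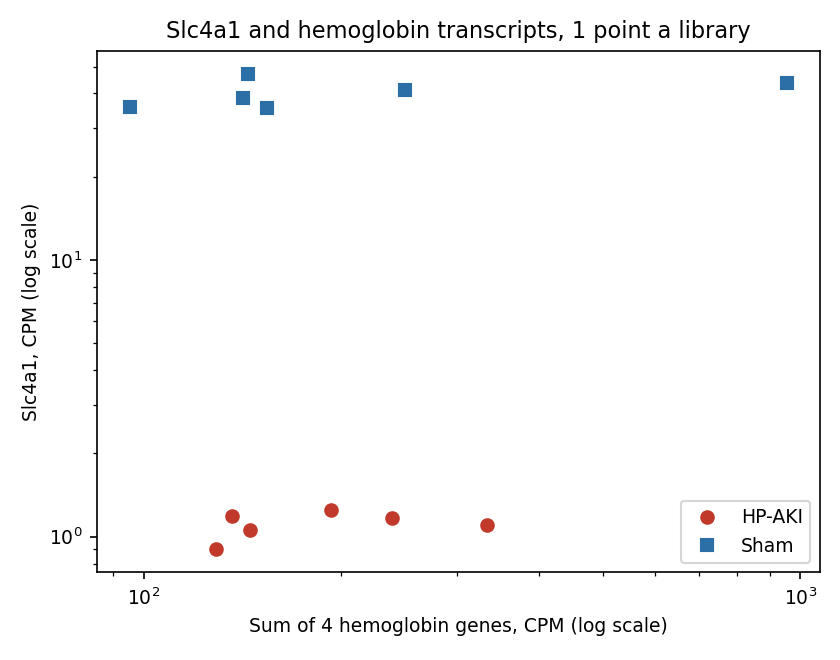
Slc4a1 CPM against the summed CPM of 4 hemoglobin genes (both log axes), 1 point for each HP-AKI or Sham library. The HP-AKI points lie between 0.905 and 1.25 CPM of Slc4a1 and the Sham points between 35.4 and 46.9 CPM over overlapping hemoglobin levels.

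The ammonia channels of the collecting duct also fell. Rhcg, the apical and basolateral ammonia channel, had 8.38, 12.8 and 20.7 CPM in HP-AKI, against 53.7, 89.97 and 91.8 CPM in Sham, a log2 fold change of -2.61 ± 0.19 (adjusted p 8.76e-09). Rhbg, its basolateral relative, had 4.19, 6.80 and 8.28 CPM in HP-AKI, against 9.61, 22.8 and 25.2 CPM in Sham, and fell by 1.62 ± 0.24 (adjusted p 1.80e-05). Sham 1 and Sham 2, at 13.7 and 9.61 CPM, were far below the other Sham libraries. Without these and HP-AKI 8 the Rhbg fall was 1.83. In the GENCODE vM21 annotation 61.4% of Rhbg exon bases are shared with a predicted gene on the same strand, so its count is uncertain.

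Aqp6, a water and anion channel of intracellular vesicles in type A cells, had 4.598, 5.76 and 7.45 CPM in HP-AKI, against 22.1, 28.0 and 32.9 CPM in Sham. The log2 fold change was -2.23 ± 0.13 (adjusted p 5.87e-10) and the groups were far apart. Slc26a7, a chloride-bicarbonate exchanger of type A cells in the outer medulla, had 1.13, 1.81 and 2.68 CPM in HP-AKI, against 6.14, 7.02 and 10.6 CPM in Sham, and fell by 2.07 ± 0.20 (adjusted p 2.37e-07).

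The type B exchangers among the members fell by smaller amounts. Slc26a4, pendrin, had 51.9, 59.2 and 79.8 CPM in HP-AKI, against 83.7, 94.3 and 109 CPM in Sham, a log2 fold change of -0.62 ± 0.10 (adjusted p 6.54e-05) with no overlap. Slc4a9, the basolateral exchanger AE4 of type B cells, had 41.95, 48.8 and 68.5 CPM in HP-AKI, against 47.0, 69.8 and 87.3 CPM in Sham. Its groups overlapped, and the log2 fold change of -0.40 ± 0.15 (adjusted p 0.0263) no longer passed when HP-AKI 9 (-0.37), HP-AKI 11 (-0.37), Sham 4 (-0.32) or Sham 5 (-0.37) was left out, or when libraries were scaled by their totals alone (-0.29). Set against each other within a library, Slc4a1 had 1.496, 1.77 and 2.25 counts per 100 counts of Slc26a4 in HP-AKI, against 32.5, 42.4 and 52.1 in Sham. This ratio was formed after the values were seen and was not tested.

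**Figure D5:**
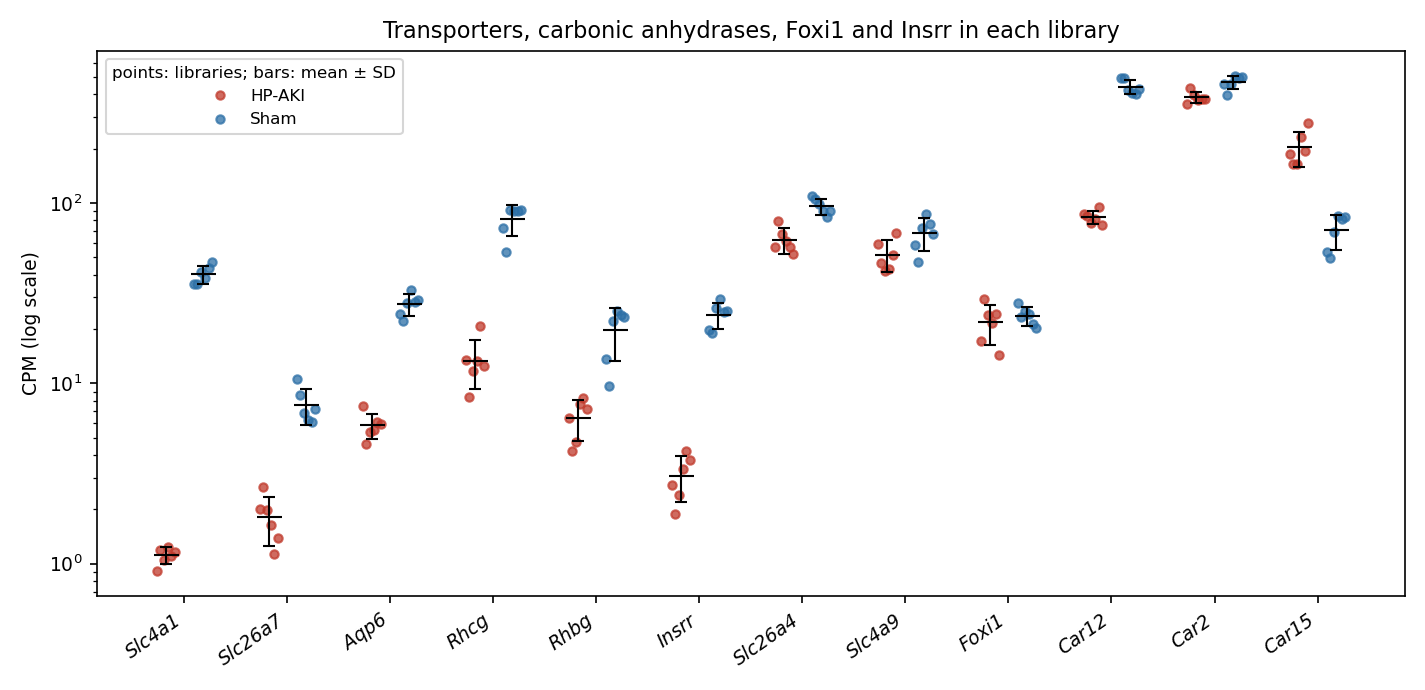
CPM (log axis) of 12 transporter, carbonic anhydrase and regulator genes in each of 6 HP-AKI and 6 Sham libraries, with mean and SD. The Slc4a1 groups are the farthest apart, Foxi1 overlaps between groups, and Car15 is the gene with HP-AKI above Sham.

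Foxi1, the forkhead factor of intercalated cells, did not pass. It had 14.3, 22.7 and 29.5 CPM in HP-AKI and 20.2, 23.7 and 27.9 CPM in Sham, and its log2 fold change was -0.12 ± 0.15 (adjusted p 0.477). The HP-AKI libraries reached both below and above the whole Sham range, with HP-AKI 13 lowest and HP-AKI 8 highest. Insrr, the insulin receptor-related receptor that senses alkaline fluid and is found in type B cells, had 1.89, 3.06 and 4.21 CPM in HP-AKI, against 19.1, 24.9 and 29.4 CPM in Sham, and fell by 2.97 ± 0.18 (adjusted p 1.38e-09). After Slc4a1 this was the second largest fall among the members.

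The carbonic anhydrases, which interconvert carbon dioxide and bicarbonate, divided. Car12, a membrane-bound form with its active site outside the cell, had 75.6, 83.4 and 95.3 CPM in HP-AKI, against 404, 425 and 494 CPM in Sham, and fell by 2.40 ± 0.08 (adjusted p 4.62e-12). Car2, the abundant cytosolic form of intercalated, proximal tubule and other cells, averaged 385 ± 28.0 CPM in HP-AKI and 468 ± 40.8 CPM in Sham (SD, n = 6 each). It fell by 0.28 ± 0.08 (adjusted p 0.00438) with overlapping groups, and did not pass with library size only (-0.17).

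Car15, a membrane-anchored form of mouse kidney, had 164, 190 and 278 CPM in HP-AKI, against 49.5, 75.4 and 84.8 CPM in Sham, and rose by 1.53 ± 0.16 (adjusted p 6.42e-07). Every HP-AKI library was above every Sham library, and this was the largest rise of any member. GENCODE vM21 gives 65.7% of Car15 exon bases also to Gm20518 on the same strand, a gene listed with 209 to 331 CPM in HP-AKI and 74.1 to 123 CPM in Sham, so how the authors' counting divided the reads bears on both.

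Other intercalated cell genes, from a list of 15 that are no members, gave 9 falls and 2 rises, with a median log2 fold change of -0.33. These are 60.0% and 13.3% of the list, beside 35.2% and 37.7% of all tested genes. Bsnd, barttin, a subunit of chloride channels, averaged 10.1 ± 2.70 CPM in HP-AKI and 58.2 ± 5.89 CPM in Sham and fell by 2.52 on the log2 scale. Oxgr1, the oxoglutarate receptor of type B cells, averaged 9.93 ± 2.101 CPM in HP-AKI and 53.2 ± 7.87 CPM in Sham and fell by 2.42. Tfcp2l1, a collecting duct transcription factor, fell by 0.25 with overlapping groups. The summed level of the list was 955 to 1035 CPM in HP-AKI and 994 to 1264 CPM in Sham. Tfcp2l1 alone had 434.3 to 574.5 CPM in HP-AKI and 473 to 731.5 CPM in Sham.

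Markers of neighbouring cell types moved beside these genes. Their counts are to be read against all tested genes, of which 35.2% fell and 37.7% rose. Of 10 principal cell genes, the other main cell type of the collecting duct, 5 fell and 0 rose by edgeR's adjusted p (0 also at an unadjusted p under 0.05), the summed level being 258 to 322 CPM in HP-AKI and 366 to 453 CPM in Sham. Avpr2, the vasopressin receptor, fell by 2.21 on the log2 scale, Hsd11b2, which keeps cortisol-type hormones off the mineralocorticoid receptor, by 1.36, and the water channel Aqp4 by 0.90. The other 5 principal cell genes were not called, with 0.17 for Aqp2, 0.13 for Scnn1b, 0.15 for St6gal1, -0.12 for Fxyd4 and -0.11 for Elf5. All 8 proximal tubule genes fell, summing to 2864 to 4150 CPM in HP-AKI and 15110 to 16050 CPM in Sham. On the log2 scale the endocytic receptor Cubn fell by 3.23, its partner Lrp2 fell by 2.91, and Slc27a2, a fatty acid transport protein, fell by 2.18. Of 8 genes of the thick ascending limb and distal convoluted tubule 5 fell, with Pvalb, the calcium-binding protein parvalbumin, by 3.85 and Slc12a1, the loop diuretic target NKCC2, by 2.86, and Umod, uromodulin, rose by 0.25 with overlapping groups. Their summed level was 4500 to 6787 CPM in HP-AKI and 7630 to 8298 CPM in Sham. Umod alone had 3917 to 6004 CPM in HP-AKI and 3569 to 4618 CPM in Sham. Macrophages and osteoclasts use Atp6v0d2 too: of 11 tested genes of 12 listed, 4 fell and 3 rose, and their sum was 113 to 139 CPM in HP-AKI and 107 to 153 CPM in Sham. The share of this list that fell, 36.4%, was near that of all tested genes, and the share that rose, 27.3%, was below it. Csf1r, the receptor macrophages depend on, fell by 1.01, Acp5, an osteoclast enzyme, by 1.28 and Cx3cr1, a chemokine receptor of resident macrophages, by 2.83, while Cd68, a lysosomal protein of macrophages, rose by 3.54. Other genes of osteoclasts went up, with rises of 0.85 for Ctsk, the bone-degrading protease cathepsin K, and 2.46 for Mmp9, a matrix protease that macrophages and neutrophils also make. Ocstamp, needed for osteoclast fusion, had 66 counts over the HP-AKI group and 4 over the Sham group and was too rare to test. None of these markers was at 0 in both groups, and their part in the members' results was not tested.

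Transcripts for proteins that assemble and regulate the pump went both ways. Of 12 listed, 8 fell and 3 rose, with a median log2 fold change of -0.64. The share that fell, 66.7%, was above the 35.2% of all tested genes, and the share that rose was below their 37.7%. Ncoa7, a TLDc-domain protein that binds the V1 sector in intercalated cells, averaged 61.7 ± 11.4 CPM in HP-AKI and 175 ± 33.7 CPM in Sham and fell by 1.503 (adjusted p 1.80e-07). Rogdi, a subunit of the complex that reassembles V1 with V0, fell by 1.16. Atp6ap2, the prorenin receptor and an accessory protein of the pump, fell by 0.25 with overlapping groups. The 3 that rose were Tmem199 (0.67) and Ccdc115 (0.52), factors that help assemble the V0 sector, both with no overlap between groups, and Oxr1 (0.49), a TLDc-domain protein whose groups overlapped.

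Genes of the lysosome and the CLEAR network, which share the ubiquitous pump subunits, went both ways, with 9 falls and 7 rises of 20 and a median of -0.01. Sqstm1, the autophagy receptor p62, averaged 2444 ± 422 CPM in HP-AKI and 297 ± 46.4 CPM in Sham and rose by 3.04. Ctsd, the lysosomal protease cathepsin D, rose by 1.79, and Ctsl, cathepsin L, rose by 1.36. Of 15 genes for acid-base handling elsewhere in the nephron, 7 fell (46.7%) and 3 rose (20.0%), with a median of -0.165. The same 35.2% and 37.7% of all tested genes stand beside these shares. Car14, a membrane-bound carbonic anhydrase, fell by 2.52 and Slc4a4, the basolateral bicarbonate exporter of the proximal tubule, averaged 394 ± 129.7 CPM in HP-AKI and 1885 ± 269 CPM in Sham and fell by 2.26.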

How the data were processed

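The deposited table gives raw counts per gene and RPKM for 12 mouse kidney libraries, 6 labelled HP-AKI and 6 labelled Sham. The authors used TopHat2 2.1.0, featureCounts and edgeR with GRCm38, per the submitters' processing notes, which give no settings. Whether counting used strand is not given in the sources used here. The authors' RPKM values are scaled by gene length and by a library total, 2.975 to 3.47 times larger than the column's count sum, and they entered only as an alternative for the paralog ratios.

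Counts were tested with edgeR 4.0.16 in R 4.3.3 (quasi-likelihood test, TMM factors, filterByExpr, Benjamini-Hochberg over all 17470 genes tested, threshold 0.05). Ratios of paralog counts, with 0.5 added to each count, were tested by exact permutation. On simulated data with the same layout (17268 genes tested), the edgeR procedure recovered 34.9% of 63 genes with a log2 change of 0.5, 86.4% of 66 with a change of 1 and 100% of 67 with a change of 2, and 3.95% of its calls were false. Changes of 0.5 or less can thus go uncalled, though the simulation changed only a small share of its genes. In the data 72.8% of tested genes were called, so the recovered and false shares need not hold for this fit. Overlaps of exons were read from GENCODE vM21 and promoter letters from RefSeq. No 2 libraries of a group agreed within counting noise. Alternatives were RLE, upper-quartile and no scaling factors, other low-count filters, DESeq2 1.42.0, limma-voom 3.58.1, leaving out each library, and, chosen after seeing the data, leaving out Sham 1, Sham 2 and HP-AKI 8 together.

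The members and gene lists were chosen with earlier results of these data known, so no list was tested as a set. Every member is described. From each other list the 2 called genes with the largest change and the gene with the highest mean CPM are named, together with Hbb-bs, Alas2, Csf1r and Acp5. Genes behind small counts (Tspan33, Epb42, Oxr1, Tmem199, Ccdc115), the 5 uncalled principal cell genes, Ctsk, Mmp9, Ocstamp and the Slc4a1 to Slc26a4 ratio were chosen after their values were seen.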

Additional observations from a re-analysis of the deposited data

Results flagged for a closer look

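Dixon's criterion was applied to 108 groups of 6 values, formed by the tested members, the paralog ratios and the summed lists in each condition. By this criterion, which chance alone meets in about 1 group in 20, a single library stood apart from the rest in 3 groups. Atp6v0a1 had 152 CPM in HP-AKI 12, against 107 to 123 CPM in the other HP-AKI libraries. Without HP-AKI 12 its log2 fold change of HP-AKI over Sham was 1.12 (1.21 with it). The summed genes of acid-base handling elsewhere in the nephron had 3483 CPM in the same library, HP-AKI 12, against 2117 to 2407 CPM in the other HP-AKI libraries. The summed red cell genes had 1049 CPM in Sham 5, against 138.5 to 309 CPM in the other Sham libraries, and without Sham 5 the log2 fold change of Slc4a1 was -5.155 (-5.17 with it).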

How the results depend on the processing

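Over the 34 tested members and 20 alternatives, 658 of 680 values kept their side of the threshold, 6 lost their call, 16 gained one and 0 changed the sign of a call. Among the 658, 9 values of members that did not pass, Atp6v1g3, Atp6v1f, Atp6v1b2, Atp6v0e and Foxi1, had the other sign. The members that fell numbered 19 to 23 and those that rose 3 to 4, and 4 restricted subunits fell under every alternative. All called genes numbered 12412 to 12961 (12720 with all libraries) when a library was left out. Atp6v1c1 passed only with upper-quartile factors (-0.21). The d subunit ratio was -0.19 as a difference of group medians, ran from -0.41 to -0.23 when a library was left out, and passed without HP-AKI 8 (-0.41, exact permutation, adjusted p 0.0195), HP-AKI 9 (-0.39, adjusted p 0.0476) or Sham 5 (-0.39, adjusted p 0.0498). The cause was not tested. Scaling by library totals alone shifted all genes' median by 0.12 on the log2 scale. No paired analysis was possible because the groups share no sample numbers. Depth limits Atp6v1e2, whose 3 counts in HP-AKI and 1 in Sham show no difference at this depth.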

Other observations

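Set against Foxi1 counts in the same library, the intercalated cell genes fell into levels that differed in how far HP-AKI and Sham were apart. Atp6v1g3 had 2.61, 3.58 and 5.82 counts per Foxi1 count as lowest, median and highest in HP-AKI, against 2.99, 3.44 and 4.12 in Sham, so the groups overlapped. Slc4a9 also overlapped, with 1.57, 2.06 and 4.78 in HP-AKI, against 2.03, 3.10 and 3.62 in Sham, and its top value was that of HP-AKI 13, the library lowest in Foxi1. Rhcg had 0.285, 0.699 and 0.867 in HP-AKI, against 2.32, 3.66 and 4.54 in Sham, with every HP-AKI library lower. Atp6v1b1 had 0.513, 1.29 and 1.94 in HP-AKI, against 3.81, 5.03 and 6.37 in Sham, and Slc4a1 had 0.0405, 0.0491 and 0.0814 in HP-AKI, against 1.27, 1.62 and 2.32 in Sham. These ratios were formed after the values were seen and were not tested.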
